A study of Oryza sativa with 12 samples.

Results

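The comparison described here set leaves of Bala against leaves of Azucena, 2 rice (Oryza sativa) cultivars grown side by side in field plots that stayed flooded. All 3 Bala control arrays and all 3 Azucena control arrays were used, 6 of the 12 arrays of the study. Every probe set other than the array's own controls could enter, 57258 in all. The 33476 tested were above the median signal of the array on 3 or more of the 12. Bala is an upland cultivar of the indica subspecies and Azucena an upland cultivar of the tropical japonica group. Control plants were never droughted, and at 83 days after sowing a bag of leaves was frozen from each of 3 field blocks, pooled from 3 plants of 1 plot. The leaf was the youngest but one to be fully expanded, with 4 cm cut off at either end. The remaining 6 arrays, 3 of Bala and 3 of Azucena from plots without water for 24 days from day 59, showed whether the cultivar difference was seen again in other leaves. They also entered the common estimate of spread, the filter on dim probe sets and the choice of a gene's probe set, but no mean of the main comparison. Each cultivar is 1 genotype, so a difference between them is one between these 2 lines and not one between subspecies. The replicates are called biological in the labels, and no label says whether replicates of the 2 cultivars shared a block.

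Indica and japonica are the main subspecies of Asian rice and differ at many single bases, in small insertions and deletions, and in which genes they carry. Constitutive differences between cultivars of the 2 groups are known for flowering time, grain starch, fragrance, plant height and leaf senescence. On an Affymetrix array a transcript is read by a probe set, a group of short probes whose signals are combined, and most probe sets of the rice array were designed on japonica sequence. A base difference under a probe lowers its signal without any difference in transcript amount. In a single probe set, less transcript and a poorer match of the probes cannot be told apart. Probe sets of 1 gene can read different stretches of the transcript, but they can also share probes, so their agreement is not always independent. Genes with more than 1 tested probe set were counted with all of them. In whole leaves, fewer cells of a type and less RNA per cell cannot be told apart either.

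Signals are the deposited linear values, a difference is Bala minus Azucena on the log2(signal + 16) scale with its standard error, and p-values are those of limma, adjusted by the Benjamini-Hochberg method over all 33476 probe sets, with 0.05 as the threshold. The added 16 shrinks the difference of dim genes. Background was taken as the highest of 33 negative control probe sets of the same array, 13.4 to 18.5 in Bala control and 19.6 to 28.3 in Azucena control. Where all arrays of one cultivar lay at background, the fold in control arrays is given as a lower bound against it. That bound compares group means on the log scale and carries no error, so single arrays can give less. The log2 difference of such a gene, which moves with the value added before the log, gives no such bound. Median signals were 9.6 to 11 in Bala and 10.7 to 12.4 in Azucena. These medians lay under the background of their arrays, so some tested probe sets were at background. A filter at background kept 26681 probe sets. Arrays of 1 cultivar correlated at 0.894 to 0.905 and arrays of different cultivars at 0.845 to 0.864 (Spearman, across probe sets). The ratio of 3′ to 5′ signal, a sign of RNA quality, overlapped between the cultivars for actin, 12.4 to 25.1 in Bala and 15.3 to 28.6 in Azucena. It did not overlap for GAPDH, 1.39 to 5.06 in Bala and 5.52 to 31 in Azucena, or for ubiquitin, 0.711 to 0.775 in Bala and 0.68 to 0.702 in Azucena, and the part of this in the results was not tested. Leaf mesophyll markers (6 tested) were bright in both cultivars and summed to signals of 41536 to 47570 in Bala and 38394 to 46501 in Azucena. The 3 tested of 7 anther and pollen markers summed to 40 to 65 in Bala and 71.6 to 86.2 in Azucena. None of these 3 was called, and background averaged 15.3 in Bala and 24.0 in Azucena, so sums this low show no difference in level. The 10 tested markers of shoot meristem and inflorescence summed to 4836 to 6250 in Bala and 4375 to 5742 in Azucena.

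Of the 33476 probe sets, 9572 (28.6%) differed between the cultivars, 3327 (9.94%) higher and 6245 (18.7%) lower in Bala. Taking the brightest probe set of each gene, 5216 of 15608 genes (33.4%) were called, 1672 (10.7%) higher and 3544 (22.7%) lower in Bala. The median difference of the called genes was 0.821 in size, and 3318 of them differed by 1 or less. Differences over 2 were met in 124 genes that were higher and 360 that were lower in Bala, and differences over 4 in 6 and 59. The excess of lower calls depended on how arrays were scaled to each other. Among called probe sets the share higher in Bala was 34.8% as deposited, 44.2% with each array centred on its median, 52.2% after quantile normalization, 29.3% with centring on the hybridisation spike-ins and 17.7% with centring on the poly-A controls. Between these scalings the median difference over all tested probe sets moved from 0.0442 with quantile normalization to -0.286 with poly-A centring. Left without the first Bala array, the dimmest of the 6, the share was 43.8%. None of the 201 genes and probe sets followed by name changed direction under any alternative in which it had a value, but most of them were chosen for wide differences without overlap.

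**Figure D1:**
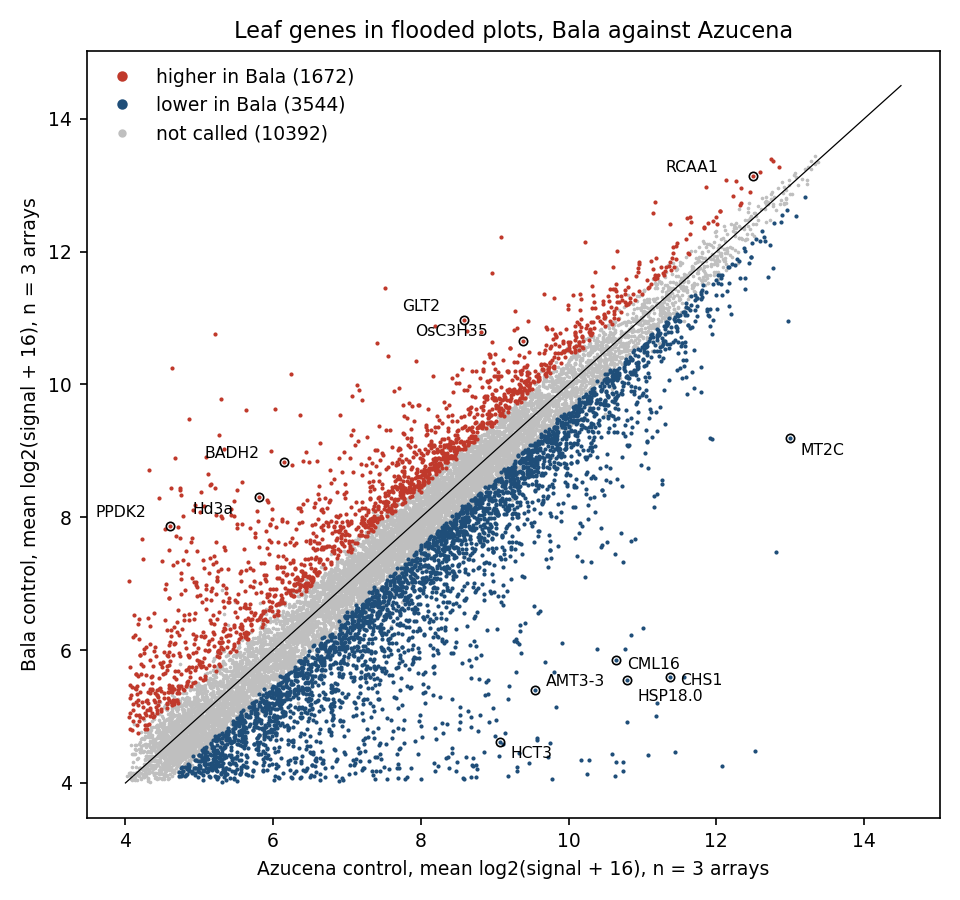
Each point is 1 gene, with the mean log2(signal + 16) of 3 Azucena control arrays on the horizontal and of 3 Bala control arrays on the vertical axis, coloured by the call (limma, adjusted p under 0.05). Called genes lie on both sides of the line of equality, 1672 above and 3544 below, and labelled genes far below the line include MT2C, CHS1, HSP18.0, CML16 and HCT3.

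More than 1 tested probe set was present for 2556 genes. All probe sets were called higher in Bala for 104 of them and all lower for 223, none was called for 1378, some but not all were called in one direction for 281 (higher) and 528 (lower), and 42 (1.64%) had probe sets called in opposite directions. Where the brightest probe set of a gene was called, the gene's other probe sets were called the same way in 40.7% of 383 cases when it was higher in Bala and in 48.7% of 723 cases when it was lower. These shares were larger for larger differences. With the brightest probe set lower by over 2, 75.7% of 103 other probe sets were called lower too and 0.971% higher. With the brightest higher by over 2, 63% of 27 others were called higher and 3.7% lower. The other probe sets showed the difference at a smaller size, a median of -1.27 against -2.97 for the brightest in the first case and 0.904 against 2.57 in the second. Probe sets of 1 gene can share probes. Counting only probe sets that the array's names place in another sequence cluster than the brightest, 49.5% of 93 were called lower where the brightest was lower by over 1, and 34.8% of 46 were called higher where it was higher by over 1. The same sign was seen in 76.3% and 67.4% of them, called or not, and 5.38% and 4.35% were called the other way.

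**Figure D2:**
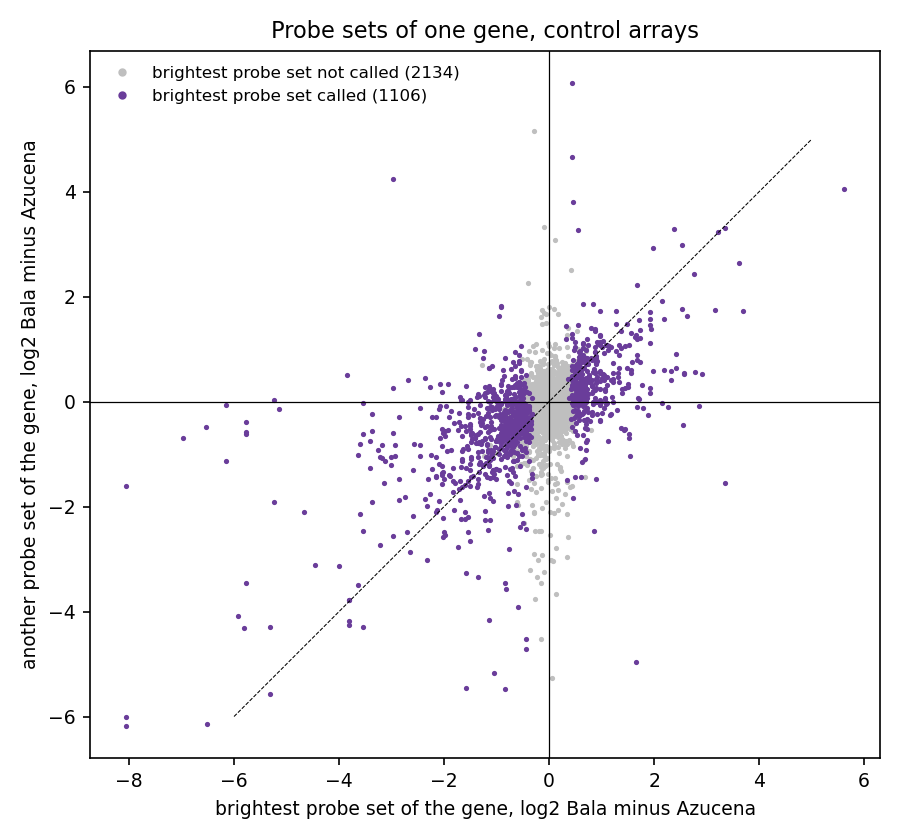
Each point is a probe set other than the brightest of its gene, with its log2 difference, Bala minus Azucena, on the vertical axis and that of the gene's brightest probe set on the horizontal axis. Points with a called brightest probe set lie mostly in the lower left and upper right, while a column of points near 0 on the horizontal axis shows dimmer probe sets that differed where the brightest was not called.

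Among named genes with every probe set lower in Bala, 2 were metallothioneins, small cysteine-rich proteins that bind metals. MT2C (LOC4337596) had signals of 541.9, 308.3 and 1078.7 in Bala against 6912.4, 9656.2 and 8086.5 in Azucena, a difference of -3.81 ± 0.28 (SE, n = 3 each, limma, adjusted p = 1.1e-08), and its 5 probe sets gave -3.78 to -4.26. MT2B (LOC4326409) had 1796.8, 2166.9 and 1968.9 in Bala and 7491.0, 9314.4 and 7397.8 in Azucena, and its 3 probe sets gave -2.02 to -2.58. In both genes every Azucena array was several times brighter than every Bala array. Of 7 metallothionein genes tested these 2 were lower and none was higher as deposited, and 1 was higher with median centring or quantile normalization. HCT3 (LOC4340333), a hydroxycinnamoyl transferase, had 9.7, 9.8 and 6.5 in Bala, all at background, against 456.5, 662.5 and 471.2 in Azucena, at least 34.6-fold lower (adjusted p = 3.7e-12), and its dimmer probe set gave -3.11. Both HCT3 probe sets carry the same sequence cluster in their names and may share probes.

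The other named genes that were lower on every probe set had varied roles. BC1L9, a COBRA-like wall protein, had 166.6, 127.7 and 141.8 in Bala and 1090.2, 1236.6 and 1444.3 in Azucena (-2.98 ± 0.15, adjusted p = 1.3e-10). CESA3, a cellulose synthase subunit, had 109.8, 113.9 and 112.6 in Bala and 317.0, 701.7 and 375.6 in Azucena. In CESA3 the Bala arrays lay within a few units of each other while the Azucena arrays spread widely, with no overlap. PT8, a high-affinity phosphate transporter, had 140.0, 135.0 and 174.8 in Bala and 758.1, 940.0 and 752.2 in Azucena, and its 3 probe sets gave -2.00 to -3.02. ART1, the zinc finger factor that switches on aluminium tolerance genes in roots, had 147.6, 179.1 and 117.1 in Bala and 533.8, 583.6 and 704.9 in Azucena. VDAC1, a channel of the outer mitochondrial membrane, had 235.2, 274.7 and 266.5 in Bala and 599.3, 752.2 and 712.7 in Azucena, and its dimmest probe set differed more (-3.34) than the others (-1.35 and -1.56). SGR, the stay-green gene whose product starts chlorophyll breakdown, had 41.5, 95.1 and 45.5 in Bala and 461.1, 208.5 and 234.4 in Azucena (-2.03 ± 0.39, adjusted p = 0.00073). Pi21, a proline-rich protein with a metal-binding domain known from blast resistance, had 46.6, 50 and 48.4 in Bala and 61.8, 216.8 and 138.5 in Azucena, with no overlap but a narrow gap between the lowest Azucena array and the Bala arrays.

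Genes higher in Bala on every probe set differed by less, with median differences between 0.51 and 1.48. OsC3H35, a zinc finger protein of the CCCH class, had 1366.1, 1611.4 and 1873.5 in Bala against 460.5, 772.1 and 785.9 in Azucena (1.27 ± 0.19, adjusted p = 5.3e-05), with 1.27 to 1.72 over 3 probe sets. RCAA1 (LOC4351224), Rubisco activase, which keeps the carbon-fixing enzyme in its active form, had 8258.0, 8721.1 and 10097.2 in Bala and 6066.4, 6483.0 and 4829.3 in Azucena, with 0.64 to 1.10 over 4 probe sets. GLK2, a factor that promotes chloroplast development, had 1208.0, 1489.5 and 1662.3 in Bala and 915.3, 1123.3 and 840.3 in Azucena. ALDP, a chloroplast aldolase of the Calvin cycle, had 8847.0, 10249.7 and 10761.2 in Bala and 7590.9, 8235.0 and 6301.0 in Azucena. FTSH9, of the FtsH family of membrane proteases, had 702.2, 942.6 and 1019.5 in Bala and 567.0, 677.2 and 507.6 in Azucena. BP-73 (0.87), ASPR2, a TOPLESS-related co-repressor (0.59), the kinase genes WNK8 (0.57) and CDKG-2 (0.56) and the phosphatase gene OsPP2C07 (0.50) complete the set. Only genes without overlap between the arrays were named, a pattern met in 43.5% of all genes tested in one direction or the other, so nothing is read from it.

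**Figure D3:**
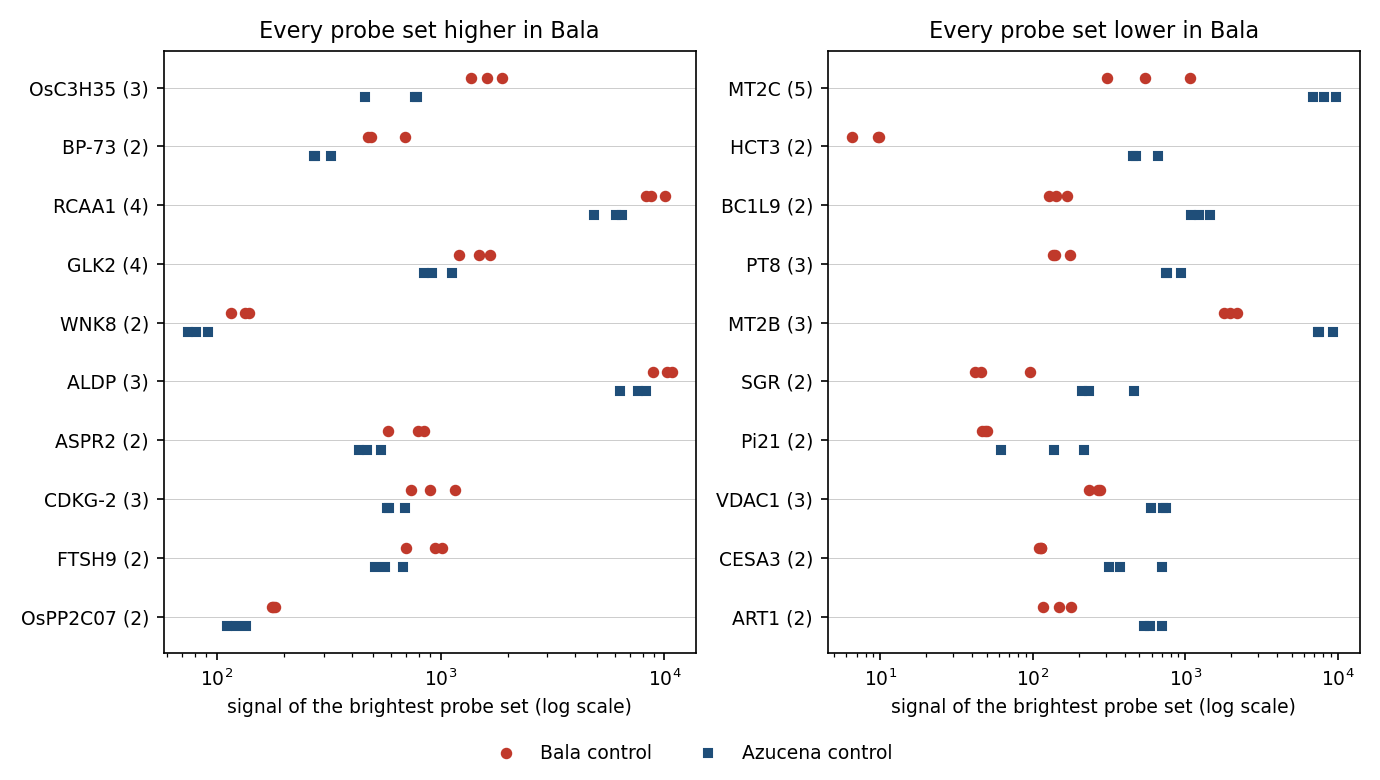
Signal of the brightest probe set on each control array (log scale) for the 10 named genes with every probe set higher in Bala (left) and the 10 with every probe set lower in Bala (right), Bala as circles above Azucena as squares, with the number of tested probe sets in brackets. The gaps are narrow on the left, such as 8258.0 in Bala and 6483.0 in Azucena for RCAA1. They are mostly wider on the right, widest for HCT3, with 9.8 in Bala and 456.5 in Azucena. The gap of Pi21 is narrow, with 50 in Bala and 61.8 in Azucena.

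Probe sets called in opposite directions were met in 4 named genes, in 3 of them with arrays that did not overlap. UAM3, a mutase that supplies arabinose units for the wall, had 69.3, 91.9 and 78.9 in Bala against 153.4, 260.9 and 281.0 in Azucena on its bright probe set, a difference of -1.33 ± 0.22. Its other probe set had 43.6, 42.2 and 67.4 in Bala and lay at background on all Azucena arrays, so that it was at least 2.1-fold higher in Bala (limma, adjusted p = 8.3e-05). DTC1, the diterpene cyclase gene also called KSL7, differed by -0.54 on a probe set near 306 in Bala and 450.1 in Azucena, and by 1.06 on one near 97.1 in Bala and 37.6 in Azucena. SAT1 differed by 0.68 on its bright probe set and by -0.51 on one that averaged 2.17 in Bala and 9.83 in Azucena, but that probe set lay at background on all 6 arrays, so it shows no difference in level. For UAM3 and DTC1 the control arrays give no single direction.

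Wide differences were also seen among named genes read by 1 probe set, and no second probe set was there to set beside them. CML16, a calmodulin-like calcium sensor, had 50.5, 42.5 and 33.1 in Bala against 1646.5, 1865.9 and 1301.4 in Azucena (-4.80 ± 0.18, adjusted p = 2.1e-12). AMT3-3, an ammonium transporter, had 17.9, 54.1 and 15.5 in Bala and 641.7, 715.7 and 857.8 in Azucena. ATG8D, a ubiquitin-like protein of autophagy, had 2.7, 17.6 and 17.5 in Bala and 499.4, 387.0 and 387.9 in Azucena. CSLE1, a cellulose synthase-like protein, had 7.4, 18.9 and 10.8 in Bala and 400.8, 343.3 and 310.6 in Azucena, and APY3, an apyrase that cleaves extracellular nucleotides, 35.7, 13.9 and 39.5 in Bala and 708.0, 532.0 and 492.8 in Azucena. In each of these 5 the dimmest Azucena array was brighter than the brightest Bala array by several fold. BURP17, of the plant-specific BURP family, JAZ8, a repressor of jasmonate responses, and PMEI28, an inhibitor of pectin methylesterase, were at background in all Bala arrays and at least 24-fold, 11.6-fold and 12.4-fold lower than in Azucena.

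On the other side, ACO1, which makes the last step of ethylene synthesis, had 338.6, 436.8 and 389.8 in Bala against 1.1, 44.9 and 24.2 in Azucena (3.53 ± 0.34, adjusted p = 4.1e-07). MAN7, a mannanase that cuts wall mannans, had 644.7, 817.7 and 736.1 in Bala and 57.2, 84.5 and 58.9 in Azucena, and OsPP2C01, a protein phosphatase, 846.3, 1072.7 and 941.0 in Bala and 157.9, 133.1 and 96.4 in Azucena. PPDK2, a pyruvate orthophosphate dikinase, had 152.9, 126.4 and 522.5 in Bala, with the third array well above the others, and lay at background in all Azucena arrays, so that it was at least 9.12-fold higher in Bala. GRXC10, a glutaredoxin, was at background in Azucena and at least 6.12-fold higher in Bala, with 98.1, 143.3 and 216.7. Y14B, a subunit of the exon junction complex, was at background in Azucena and at least 5.96-fold higher in Bala. BADH2 and Hd3a, also among the 8 with the largest differences, are described with the genes known to vary between the subspecies.

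Counted over all genes, 39 were at background on all Azucena arrays while each Bala array read at least 4 times its background, and 85 showed the reverse, bright in Azucena and at background in Bala. The cut was a multiple of each array's own background, which was higher in Azucena. Among the 39 there were 8 genes with further tested probe sets, and 8 of those 9 probe sets were called higher in Bala. Among the 85 there were 22 such genes, and 28 of their 32 other probe sets were called lower in Bala, none in either set the other way. Over all genes whose brightest probe set differed by over 2, 63% of the others were called higher and 75.7% lower with it. The genes were picked for a wide difference in these same arrays, and their probe sets can share probes. The agreement is therefore no separate evidence. Besides those above, IAA9, a repressor of auxin responses, with 96.4, 100.5 and 167.5 in Bala, and EXP16, an expansin, with 69.5, 75.1 and 102.6 in Bala, were named members of the first set, with lower bounds of 4.96-fold and 3.43-fold.

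Named genes were grouped into 49 lists by role. Each count is to be read against the shares over all genes tested, 10.7% higher and 22.7% lower in Bala. The median difference over all genes was -0.11. A list with those shares is no more changed than the average gene. The lists hold named genes, and over all 2152 named genes tested 10.5% were higher and 26.8% lower, which is the closer background for them. Lists in which at least 10 members were lower in Bala and few or none higher were those of wall polysaccharides, jasmonate, aquaporins, calmodulin-like proteins, kinesins and genes in common use as references.

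**Figure D4:**
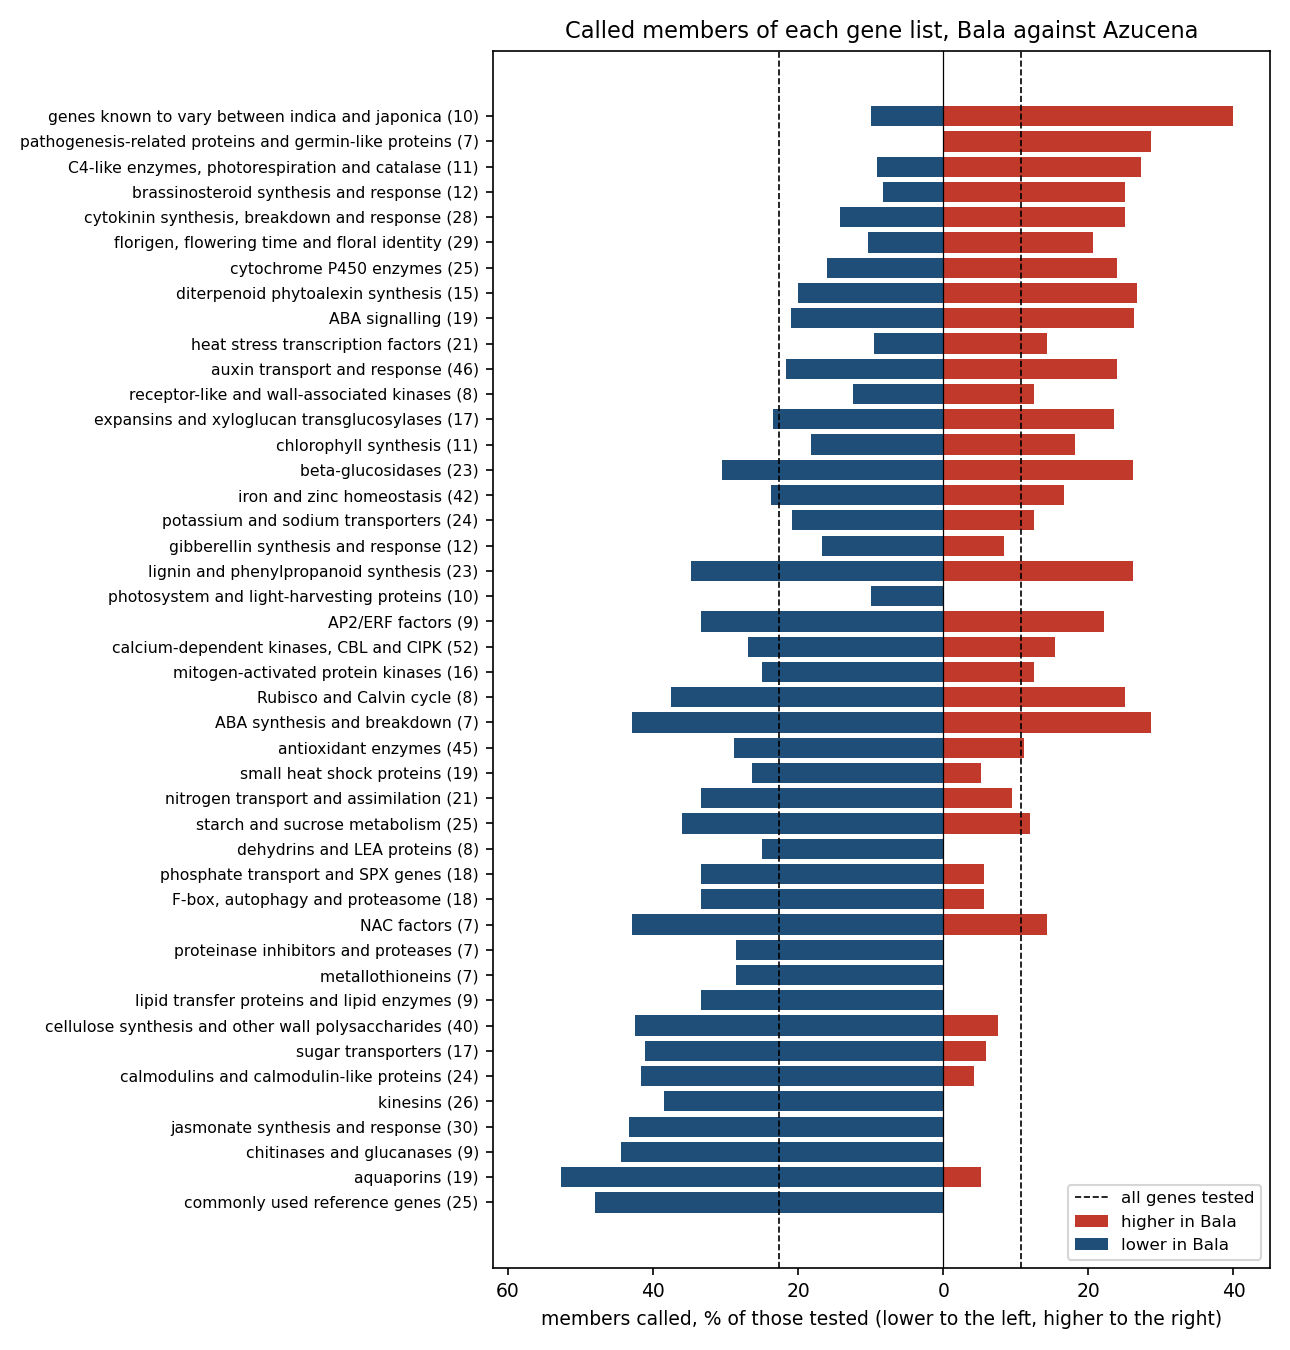
For each list with 7 or more tested members (number in brackets), the bar to the right gives the share called higher in Bala and the bar to the left the share called lower, in percent. The dashed lines mark 10.7% and 22.7%, the shares over all genes, and lists at the foot, from the cellulose list down, have left bars well past the line and short or missing right bars.

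Among wall polysaccharide genes most of the calls were lower in Bala, as they were over all named genes (26.8% lower, 10.5% higher). Of 40 genes for cellulose and other wall polysaccharides, 17 were lower and 3 higher in Bala, with a median of -0.43, and 16 to 20 were lower under the 5 scalings. CESA1, a cellulose synthase of growing walls, had 43.2, 33.4 and 25.5 in Bala and 116.4, 275.9 and 178.2 in Azucena (-1.98, adjusted p = 9.4e-06), with no call on its dimmer probe set (-0.65). It stood beside CESA3, BC1L9 and CSLE1 above. Of 26 kinesins, motor proteins on microtubules, 10 were lower and none higher (1 higher after quantile normalization), among them KIN13B with 5.3, 15.3 and 8.2 in Bala and 31.1, 80.0 and 56.1 in Azucena, and KIN14H, at background in Bala and at least 2.52-fold lower. Expansins and xyloglucan transglucosylases, which loosen walls, were split, 4 higher and 4 lower of 17. EXPB3 was at background in Bala and at least 5.16-fold lower than in Azucena, where it had 42.0, 153.0 and 73.5, and EXP2 at least 3.16-fold lower. EXPB9 had 250.3, 215.6 and 109.6 in Bala and 41.5, 44.4 and 69.3 in Azucena. Markers of dividing cells had 3 higher and 4 lower of 27 as deposited, 7 higher and 4 lower after quantile normalization, and 2 higher and 8 lower with poly-A centring.

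Phenylpropanoid and lignin genes had 6 higher and 8 lower of 23. 4CL2, a 4-coumarate-CoA ligase, was at background in Bala and at least 7.49-fold lower than in Azucena, which had 135.5, 144.4 and 74.1. CAD6, a cinnamyl alcohol dehydrogenase, had 54.1, 50.4 and 56.3 in Bala and 188.7, 409.1 and 500.0 in Azucena. LAC7, a laccase, was higher in Bala with 216.3, 34.3 and 237.2 against 0.3, 24.5 and 14 in Azucena, 1 Bala array lying close to the highest of Azucena. CHS1 (LOC4350636), chalcone synthase, which opens flavonoid and anthocyanin synthesis, had 46.5, 31.3 and 22.8 in Bala and 2507.3, 3465.9 and 2100.3 in Azucena, a difference of -5.77 ± 0.18 (adjusted p = 3.2e-13). A second probe set of CHS1 gave -3.45 (adjusted p = 3.1e-08), and the other 3, dim in both cultivars, gave -0.40 to -0.61 without a call.

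The jasmonate list held genes of synthesis and response picked by family name, such as lipoxygenases and OPR reductases. Whether each member acts in jasmonate synthesis or response was not tested. Of the 30 genes 13 were lower and none higher in Bala, where 26.8% of all named genes were lower and 10.5% higher. None was higher under any of the 5 scalings, with 12 to 16 lower. The median of the list was -0.55. OPR4 and OPR5, reductases of the OPR family, were lower, OPR4 with 87.3, 152.3 and 65.6 in Bala and 558.4, 499.7 and 554.8 in Azucena, and OPR5 at least 4.83-fold. CM-LOX2, a lipoxygenase, differed by -2.10 ± 0.24 (adjusted p = 3e-06), with means of 93.3 in Bala and 449.8 in Azucena, and with 2 of its 3 probe sets called. Of 9 chitinases and glucanases, 4 were lower and none higher (1 higher after quantile normalization). Cht11 had 517.2, 216.1 and 686.1 in Bala and 1568.3, 2446.0 and 2107.1 in Azucena. Cht2 had 1247.9, 888.8 and 1479.8 in Bala and 2583.7, 2649.5 and 3226.8 in Azucena on the brightest of 3 probe sets, of which 2 were called lower and the third gave 0.97, and Cht4 differed by -2.59. A pair of germin-like protein genes went the other way. GLP2 had 225.9, 249.8 and 256.8 in Bala and 28.9, 32.0 and 24.1 in Azucena (2.56 ± 0.17, adjusted p = 3.7e-09), and GER6 had 170.3, 155.2 and 224.8 in Bala and 13.2, 23.3 and 29.4 in Azucena. The second probe set of GLP2 was dim and gave -0.45 without a call. Genes for diterpenoid phytoalexins, the antimicrobial compounds of rice leaves, were split, 4 higher and 3 lower of 15, and 2 higher and 3 lower with poly-A centring. CYP76M7, a cytochrome P450 of that pathway, was at background in Bala and at least 3.41-fold lower than in Azucena, and OsMAS had -1.36. CPS2 with 108.6, 104.2 and 106.4 in Bala and 33.9, 14.7 and 14.7 in Azucena, and CYP701A8 with 398.1, 495.8 and 336.8 in Bala and 88.4, 100.6 and 90.7 in Azucena, were higher in Bala.

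Most calls in the nitrogen, phosphate and aquaporin lists were lower in Bala, as they were over all named genes (26.8% lower, 10.5% higher). Of 21 nitrogen genes, 7 were lower and 2 higher. AMT1, an ammonium transporter, had 140.4, 173.3 and 102.5 in Bala and 459.5, 597.3 and 559.6 in Azucena, and DUR3, a urea transporter, differed by -1.93. GLT2, a glutamate synthase of nitrogen assimilation, was higher with 1619.3, 1749.4 and 2825.2 in Bala and 330.5, 403.2 and 376.4 in Azucena (2.39 ± 0.19, adjusted p = 4.1e-08). Of 18 phosphate genes, 6 were lower and 1 higher. PT1 (LOC4335115), a phosphate transporter that shares its symbol with 2 other genes of the table, had 32.1, 37.3 and 34 in Bala and 219.1, 196.9 and 290.2 in Azucena, and PHO1-2, of the family that exports phosphate, 18.7, 25.7 and 23.8 in Bala and 146.4, 134.3 and 189.5 in Azucena. Of 19 aquaporins, 10 were lower and 1 higher, and 8 to 12 were lower under the 5 scalings. PIP2-4 was at background in Bala and at least 5.13-fold lower. AQP (LOC4331608), the brightest of those named, had 2481.6, 2859.0 and 2954.0 in Bala and 6000.6, 5424.3 and 4671.5 in Azucena, and Lsi6, the silicon transporter that unloads xylem in leaves, 356.2, 407.0 and 319.2 in Bala and 512.9, 840.4 and 938.3 in Azucena. Iron and zinc genes had 7 higher and 10 lower of 42, which became 11 higher and 8 lower after quantile normalization and 5 higher and 16 lower with poly-A centring. Potassium and sodium transporters had 3 higher and 5 lower of 24, 6 higher and 3 lower after quantile normalization, and 2 higher and 8 lower with poly-A centring. NAS3, a nicotianamine synthase, had 3.7, 46.1 and 37.0 in Bala and 240.6, 330.4 and 249.6 in Azucena. VIT1 (-1.76), which loads iron and zinc into the vacuole, and YSL9 (-1.35), of the family that carries metal chelates, were lower too. NRAMP4, of the family of divalent metal transporters, had 481.8, 542.2 and 718.8 in Bala and 172.0, 146.7 and 104.3 in Azucena, and 4 of its 5 probe sets were called higher.

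In carbon metabolism, 1 of 10 light-harvesting and photosystem genes was lower and none higher as deposited, and 5 were lower with poly-A centring. Calvin cycle genes were split, 2 higher and 3 lower of 8, with RCAA1 above and FBA1, an aldolase, with 632.9, 978.4 and 930.4 in Bala and 1381.3, 1717.1 and 1555.9 in Azucena. GLO1, the glycolate oxidase of photorespiration, had 7160.6, 7641.4 and 8061.5 in Bala and 5359.0, 6253.6 and 5211.6 in Azucena, a small difference (0.44) without overlap that was not called on its dimmer probe set (0.13). The pair of pyruvate dikinases went opposite ways, since PPDKB had 414.9, 591.9 and 360.5 in Bala and 1086.0, 1223.4 and 992.7 in Azucena while PPDK2 was bright in Bala alone. ME6, a malic enzyme, was higher in Bala (0.94). Of 25 starch and sucrose genes 9 were lower and 3 higher (13 and 1 with poly-A centring), with CINV1, an invertase, at -1.26 and SUS4, a sucrose synthase, at 1.17. Of 17 sugar transporters 7 were lower and 1 higher, where 26.8% of all named genes were lower and 10.5% higher. SWEET4 had 284.2, 313.2 and 298.8 in Bala and 807.3, 1568.5 and 1474.0 in Azucena, SUT2, a sucrose transporter, differed by -1.47, and the single higher gene was SWEET5 with 178.9, 177.0 and 114.7 in Bala and 13.1, 20.8 and 29.7 in Azucena. In chlorophyll metabolism the synthesis genes were even, 2 higher and 2 lower of 11, with GSA at -0.91 and PORA at 0.92. Both breakdown genes called of 4 were lower, SGR among them.

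Hormone lists other than jasmonate were mixed, and their balance moved with the scaling. Of 46 auxin genes 11 were higher and 10 lower as deposited, 12 were higher and 7 lower after quantile normalization, and 8 were higher and 17 lower with poly-A centring. IAA3, an auxin-response repressor, had 1331.9, 1521.2 and 1921.3 in Bala and 574.6, 517.5 and 377.6 in Azucena. GH3.2, which conjugates auxin to amino acids, had 127.3, 311.8 and 178.5 in Bala and 58.6, 28.7 and 31.5 in Azucena, whereas GH3-8 of the same family was lower in Bala (-2.02). Of 28 cytokinin genes 7 were higher and 4 lower, reversed to 4 and 7 with poly-A centring, with ORR3, a response regulator, at 1.21 and LOGL10, a cytokinin-activating enzyme, at -1.13. In the abscisic acid pathway, PSY2, the phytoene synthase of carotenoid precursors, had 59.3, 120.3 and 33.1 in Bala and 574.3, 478.4 and 478.0 in Azucena (-2.72, adjusted p = 1e-06). Its relatives PSY3 (-0.90) and PSY1 (-0.69) were lower too, and ABA8OX2, which breaks abscisic acid down, was higher with 950.3, 957.8 and 1177.0 in Bala and 480.7, 324.8 and 275.3 in Azucena. Of the SAPK protein kinases of abscisic acid signalling, SAPK3 (1.16) and SAPK5 (1.03) were higher and SAPK6 (-1.28) lower.

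Among stress genes, 5 of 19 small heat shock protein genes were lower and 1 higher, close to the shares of all genes. HSP18.0 had 27.7, 41.3 and 24.6 in Bala and 1826.6, 2180.4 and 1361.6 in Azucena (-5.25 ± 0.27, adjusted p = 1.5e-10), a second probe set gave -1.92, and the remaining one, brighter in Bala than either of these, was not called (0.02). HSP17.4 was at background in Bala and at least 5.64-fold lower than in Azucena, and HSP22.3 differed by -1.78. Dhn1, a dehydrin, was lower with 188.8, 236.9 and 231.5 in Bala and 545.5, 1057.0 and 619.9 in Azucena, 1 of 2 lower among 8 dehydrin and LEA genes. Of 45 antioxidant genes 13 were lower and 5 higher, close to the shares over all named genes (26.8% lower, 10.5% higher). Glutaredoxins, small redox proteins, went both ways. GRXS1 had 67.7, 71.6 and 96.7 in Bala and 727.5, 797.9 and 729.1 in Azucena, and GRXS2 53.5, 106.7 and 50.3 in Bala and 417.6, 401.1 and 328.6 in Azucena, while GRXC1 had 1086.5, 863.7 and 969.6 in Bala and 388.9, 128.7 and 139.3 in Azucena.

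Of 24 calmodulins and calmodulin-like proteins 10 were lower and 1 higher in Bala, with 9 to 13 lower under the 5 scalings. Over all named genes 26.8% were lower and 10.5% higher. Beside CML16, CML1 had 708.6, 655.1 and 627.3 in Bala and 2320.7, 2859.6 and 2401.9 in Azucena, and CML27 236.8, 294.2 and 172.2 in Bala and 920.7, 998.6 and 906.0 in Azucena, with no call on its dimmer probe set. Calcium-dependent kinases and CIPKs had 8 higher and 14 lower of 52, 15 higher and 11 lower after quantile normalization, and 5 higher and 20 lower with poly-A centring. CIPK14 with 475.0, 346.1 and 1009.5 in Bala and 149.0, 158.9 and 83.1 in Azucena and CIPK5 (1.75) were higher, and CIPK19 (-1.78) lower. Of 23 beta-glucosidases 6 were higher and 7 lower. BGLU1 (LOC4333841) had 47.3, 43.1 and 44.3 in Bala and 406.1, 555.1 and 361.9 in Azucena, BGLU19 was at least 6.42-fold lower, and BGLU22 was higher (1.48). Of 7 genes of the epidermis and its wax 3 were lower and 1 higher, and their summed signal was 1681 to 1818 in Bala and 2328 to 2836 in Azucena. LTPL1, a lipid transfer protein, led them with 334.0, 370.8 and 364.2 in Bala and 1174.7, 1309.4 and 981.2 in Azucena, and GL2-1 differed by -0.88. The part of the epidermis in other results was not tested.

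Genes in common use as references for leaf expression were lower in Bala in 12 of 25 cases and higher in none. Among all named genes 26.8% were lower and 10.5% higher. No reference gene was higher under any of the 5 scalings, with 10 to 20 lower. TUB1, a beta-tubulin, averaged 22.9 ± 5.2 in Bala and 221.9 ± 170.0 in Azucena (SD, n = 3 each), with no overlap. AC2, an actin, had 221.7, 334.7 and 108.5 in Bala and 1154.5, 1410.7 and 841.3 in Azucena (-2.37, adjusted p = 3.7e-06). GAPC3, the cytosolic GAPDH, had 451.0, 565.8 and 579.9 in Bala and 1716.9, 1698.1 and 1871.6 in Azucena, with 2 of 3 probe sets called.

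The genes known to vary between indica and japonica cultivars are given whether called or not. Of 10 tested, 4 were higher and 1 lower in Bala. BADH2, whose loss of function gives fragrant rice, as Azucena is, had 378.5, 448.7 and 497.3 in Bala against 172.6, 29.2 and 25.6 in Azucena (2.68 ± 0.38, adjusted p = 3.8e-05), with 1 Azucena array well above the other 2. Hd3a, the florigen made in leaves, had 289.5, 484.6 and 191.7 in Bala and 84.0, 33.3 and 19.9 in Azucena (2.50 ± 0.32, adjusted p = 1.3e-05). GA20ox2, the gibberellin enzyme whose mutants gave semidwarf rice, had 195.7, 236.0 and 286.9 in Bala and 133.9, 167.0 and 108.9 in Azucena (0.75, adjusted p = 0.0093). GBSS1, the Waxy gene of grain amylose, had 94.8, 130.3 and 91.2 in Bala and 69, 67.9 and 47.5 in Azucena on its brightest probe set, but only 1 of 5 probe sets was called and the others gave 0.30 to -0.63. SGR was lower, as above. No call was made for DTH8 (-0.48, adjusted p = 0.084), NAL1 (0.20), HKT1;5 (0.20) or phyC (0.16). Hd1, a flowering repressor or activator that depends on day length, lay at background on all 6 arrays.

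Flowering and floral identity genes as a list had 6 higher and 3 lower of 29, 8 higher and 2 lower after quantile normalization, and 6 higher and 9 lower with poly-A centring. MADS14, which rises in leaves and meristems at the floral transition, had 1686.2, 2057.3 and 1674.4 in Bala and 803.3, 1039.0 and 253.3 in Azucena (1.56 ± 0.49, adjusted p = 0.024), with 2 of 4 probe sets called. MADS2 was at background in Azucena and at least 2.75-fold higher in Bala, and MADS26, a factor of stress and defence responses in rice, was lower with means of 15.2 in Bala and 209.2 in Azucena (-2.82 ± 0.21, n = 3 each, limma, adjusted p = 1.9e-08). The stage of the plants at sampling is not given in the sources used here, so a difference in stage and one in expression at a given stage cannot be told apart.

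In the order of the species' gene table, 26 runs held at least 3 consecutive tested genes that were all called the same way with a difference of 1 or more, 24 of them lower and 2 higher in Bala. Such differences were met in 12.1% of the 15475 genes placed. Over all 15608 genes tested, 1359 were called lower by over 1 and 539 higher. More lower than higher runs would therefore be met without any grouping of genes by place. The number of runs to be met from these shares was not computed. The longest run had 5 genes, all lower in Bala, with differences of -1.11 to -4.52, 2 untested genes among them, and Azucena means of 73.3 to 545.7 beside Bala means of 2.33 to 47.6. The second had 4 genes lower by -1.99 to -3, and the other 24 had 3 genes each. In 7 runs no untested gene lay in between. Most genes in these runs have no name in the tables, and CHS1 and ART1 were among those that do. Neighbours can be copies of one another that share probes, which was not tested.

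The cultivar difference was then read in the drought arrays, which share no sample with the control arrays but are read by the same probes. Fitted on their own, 8466 probe sets (25.3%) were called in the 6 control arrays and 8168 (24.4%) in the 6 drought arrays. Of those called in control, 77.8% had the same sign in drought against 61.9% of all probe sets tested, and 46.3% were called the same way. The share called again was larger for larger differences, 64% of 3912 above 1, 81.9% of 1106 above 2 and 93% of 171 above 4. In the direction lower in Bala, 92.6% of 136 probe sets beyond 4 were called again, and in the direction higher, 94.3% of 35. Of the 85 genes bright in Azucena and at background in Bala, 69 met the same rule in the drought arrays, and of the 39 with the reverse pattern, 17 did. Genes called in both conditions included HCT3 with -4.18 in drought arrays and -4.45 in control arrays, JAZ8 with -4.03 and -3.37, CSLE1 with -4.13 and -3.71, ATG8D with -3.48 and -3.99, OsPP2C01 with 3.11 and 2.76, BADH2 with 2.71 and 2.68, and NRAMP4 with 2.06 and 1.93. In 59 of the 81 genes in neighbour runs the difference was called the same way in drought.

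The test of the difference between the conditions called 3794 probe sets (11.3%). CHS1 differed by 0.48 in drought arrays, called the other way (adjusted p = 0.0066), and by -5.77 in control arrays (interaction adjusted p = 8.2e-10). It averaged 3518 ± 170 in Bala and 2529 ± 210 in Azucena under drought (SD, n = 3 each). MT2C differed by -0.26 and -3.81 (adjusted p = 2.2e-05), HSP18.0 by -0.55 and -5.25 (1.4e-06), GLT2 by -0.23 and 2.39 (1.2e-05) and 4CL2 by 0.83, also called the other way in drought, and -2.89 (3.7e-06), each with the drought value first. TUB1 and AC2 differed by 0.27 and 0.31 in drought arrays without a call, and GAPC3 by 0.47, called the other way (adjusted p = 0.015). GRXC10 and WNK8, higher in Bala in control arrays, were called lower in Bala in drought arrays, at -0.81 and -0.75 (limma, adjusted p = 0.017 and 0.029). MADS14 went further apart, with 4.18 in drought arrays and 1.56 in control arrays. Genes were picked here for their size in the control arrays, which by itself makes a smaller value in other arrays likely.

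**Figure D5:**
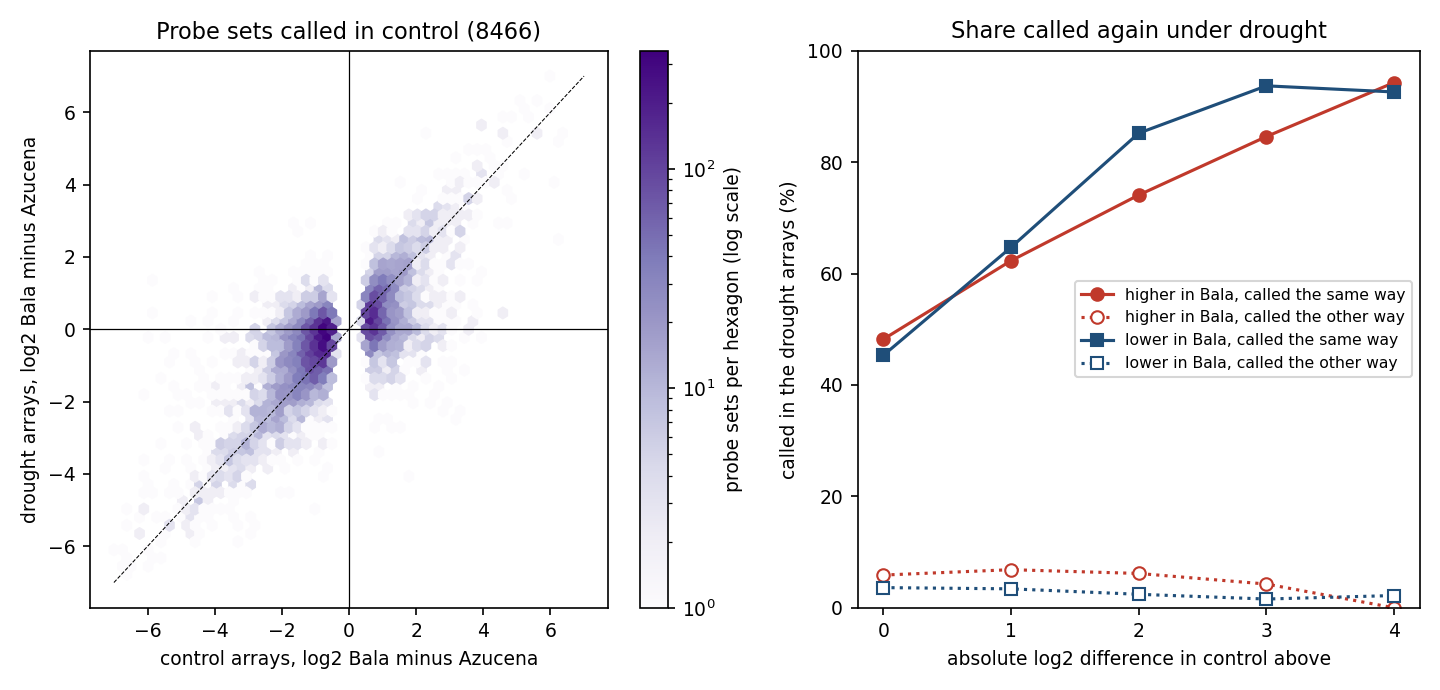
Left, log2 difference, Bala minus Azucena, of the 8466 probe sets called in the control arrays, with the drought arrays on the vertical and the control arrays on the horizontal axis, shaded by the number of probe sets. Right, the share of them called in the drought arrays the same way (filled) or the other way (open) against the size of the control difference, which was 94.3% for probe sets higher and 92.6% for those lower in Bala by over 4.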

How the data were processed

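Leaf RNA of 12 samples (4 groups of 3) was hybridised to 1-colour Affymetrix rice arrays. The authors deposited 1 linear signal intensity per probe set and array, made with MAS5 per the submitters' processing notes, and no genome build is given in the sources used here. Signals were used as log2(signal + 16), a log2 scale computed here from the deposited values. Of 57381 probe sets, 123 control probe sets were left out, and the 33476 that passed the median signal of the array on 3 or more of the 12 entered the test. limma 3.58.1 in R 4.3.3 fitted 4 group means to 12 arrays (lmFit, eBayes with trend), and the contrast was Bala control minus Azucena control, with Benjamini-Hochberg adjustment at 0.05. Data were simulated with changes of 0.5, 1 and 2 in 67, 67 and 66 of 33476 probe sets. The fit recovered 2.99%, 40.3% and 98.5% of these and called 4 unchanged probe sets. In the data 28.6% were called, so the adjusted threshold was stricter in the simulation and its recovery does not carry over. The number of arrays limits the precision. P-values measure the spread between these samples, and no label ties them to separate blocks by number.

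A probe set was given a gene where the platform annotation names 1 gene, and names came from the species' gene table (ASM3414082v1), used only for names and neighbours. Of 17905 genes on the array 2442 had a name. A gene is represented by its probe set with the highest mean over 12 arrays. Genes are named by rule: the 10 widest differences each way among genes with every probe set called, the 8 widest each way among genes with 1 probe set, those with opposite probe sets, up to 4 per list, the brightest of those at background in one cultivar, and all of the indica and japonica list, always without overlap between arrays except in that last list. Members and lists were chosen with earlier results of these data known. Other scalings, pseudocounts, filters, the replicate number as a block and leaving out each array were tried.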

Additional observations from a re-analysis of the deposited data

Results flagged for a closer look

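The cultivar difference of the genes below was not the same in drought and control arrays by the test of the difference itself (limma interaction, adjusted p under 0.05), which called 11.3% of all probe sets. Values are the difference in drought arrays minus that in control arrays, on the log2 scale. The genes were chosen for their difference in control arrays, so a value of the opposite sign to that difference is partly built into the choice, and no explanation was tested.

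Among genes lower in Bala control leaves, the values were wide for CHS1 (6.25), HSP18.0 (4.70), 4CL2 (3.72), MT2C (3.54), CESA1 (2.81), BURP17 (2.80), AC2 (2.68), TUB1 (2.66), PSY2 (2.39), EXPB3 (2.35), BC1L9 (2.34), LTPL1 (2.24), AMT3-3 (2.24), GAPC3 (2.18), HSP17.4 (2.15), NAS3 (2.05) and DUR3 (2.01). They were smaller for BGLU1 (1.99), CAD6 (1.97), Cht11 (1.97), CESA3 (1.80), GRXS2 (1.74), HSP22.3 (1.64), CML27 (1.59), PSY3 (1.58), Dhn1 (1.51), PMEI28 (1.51), APY3 (1.49), MT2B (1.46), EXP2 (1.46), VIT1 (1.45), Pi21 (1.35), KIN13B (1.33), SAPK6 (1.31), CML16 (1.28), PPDKB (1.27), AMT1 (1.26), YSL9 (1.24), OPR4 (1.23), PT8 (1.14), FBA1 (1.14), CYP76M7 (1.10), LOGL10 (1.07), Lsi6 (1.06), SUT2 (1.04), MADS26 (1.00), VDAC1 (0.84) and AQP (0.80).

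Among genes higher in Bala control leaves, the values were GRXC10 (-3.66), GRXC1 (-3.33), LAC7 (-2.64), GLT2 (-2.62), GER6 (-2.54), GLP2 (-2.34), PPDK2 (-2.32), CIPK14 (-2.17), CIPK5 (-2.01), Hd3a (-1.82), SWEET5 (-1.71), ORR3 (-1.62), EXPB9 (-1.61), CPS2 (-1.51), CYP701A8 (-1.32), WNK8 (-1.32), OsC3H35 (-1.13), MAN7 (-1.13), SUS4 (-0.95), ME6 (-0.93), ASPR2 (-0.73), SAPK3 (-0.69) and GLK2 (-0.67). MADS14 (2.62) was higher in Bala in both conditions and further apart in drought arrays.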

How the results depend on the processing

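Of 124 summary values recomputed under alternatives, 122 stayed within the limits set for them. The 2 that moved were counts of genes with probe sets called in opposite directions, 42 as reported, 71 after quantile normalization and 27 without the third Azucena array. Leaving out 1 array at a time gave 7738 to 8853 called probe sets, 4086 to 4886 genes, 237 to 307 genes with every probe set called the same way, 27 to 41 with opposite probe sets, 300 to 329 list members, 132 to 167 genes at background in one cultivar and bright in the other, 180 to 183 named genes called, and 46.6% to 52.2% of control calls called the same way in drought. The signals behind the background rule were always the deposited ones, so only the left-out arrays could move that count beyond the call. For 201 named genes and probe sets, fewer of which had a value under the filter at background (197) and the median over probe sets (195), 3247 of 3407 values kept direction and call, 158 lost the call, 2 gained one and 0 changed direction. Poly-A centring, and spike-in centring of lists and named genes, were chosen after seeing the data.

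With the replicate number as a block, 9800 probe sets were called, 3358 higher and 6442 lower in Bala. Deviations of same-numbered Bala and Azucena arrays correlated at -0.015, -0.078 and 0.023, and those of differently numbered arrays at -0.089 to 0.11. This gave no sign of pairing by number, but with 3 arrays per cultivar it cannot exclude a shared block. Changes of 0.5 were recovered in 2.99% of simulated cases, but far fewer probe sets were changed there than the 28.6% called in the data. The adjusted threshold was therefore stricter in the simulation, and this recovery does not carry over to the data. How many small differences were missed is not known. Signals at background have only a bound.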
